A study of Mus musculus with 8 samples.

Results

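Of the 55450 genes in the matrix, 10 are described here, chosen by symbol and not by their values: the interleukin-1 (IL-1) ligands Il1a and Il1b, the receptor antagonist Il1rn, the decoy receptor Il1r2, the related cytokine Il18, tumour necrosis factor (Tnf) and its receptors Tnfrsf1a and Tnfrsf1b, the inflammasome sensor Nlrp3 and the protease Casp1. Their RNA was followed in single liver cells of 8 C57BL/6 mice measured in 8 droplet libraries. All mice carried the wild-type genotype, and the 2 control mice were given a normal diet and drinking water. The 3 HFD+F+CCl4 mice received a high-fat diet and the 3 WD+F+CCl4 mice a western diet, each with fructose in the drinking water and weekly carbon tetrachloride injections, and all 6, which the labels call a NASH model (nonalcoholic steatohepatitis) and which are called NASH mice here, were sampled after 16 weeks. Each library came from 1 mouse, so the mouse is the replicate. Neither sex nor starting age was found for the mice.

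A barcode was kept as a cell when it held more than 500 genes and under 25% mitochondrial molecules, which left 80474 of 88581 barcodes. Libraries held 6135827 to 64855024 unique molecular identifiers (UMIs, counted RNA molecules), and the shallowest was control replicate 2, with a median of 992.5 UMIs in a kept cell against 2397 to 4278 in the other mice. Levels are UMIs of a gene per 1000000 UMIs of the cells of that type in that mouse (CPM), given in replicate order, and a value needed at least 20 cells. Any 2 libraries shared 8 to 46 kept barcodes. Cells were named by cluster from marker genes, and neither the 10 genes nor the other genes of their pathways entered the clustering. Clusters that met no marker list well enough stayed unnamed and out of the types. They made up 20.2% and 53.2% of control cells and 2.01% to 5.67% of NASH cells, and the large ones in control mice were led by genes of liver secretion. Monocytes, macrophages, Kupffer cells and dendritic cells, plasmacytoid ones included, are together called MMD cells here, after the study's monocyte-macrophage-dendritic cell (MMD) system. The study formed that system from its own clusters of monocytes, Kupffer cells and dendritic cells and names no plasmacytoid cells, so the sets can differ. MMD cells as named here numbered 1076 and 699 in the controls and 6447 to 7532 in each NASH mouse. Kupffer cells, the resident macrophages of the liver, numbered 7 and 0 in the controls and hepatic stellate cells 17 and 1, so neither could be compared.

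IL-1α and IL-1β act on the same receptor and start fever, neutrophil entry and cytokine production, while the antagonist occupies that receptor without signalling and the decoy receptor binds the ligands without passing a signal on. IL-1β and IL-18 are made as inactive precursors that caspase-1 cuts once an inflammasome, such as the one built by NLRP3, has assembled, so the RNA alone does not show how much active cytokine is released. TNF acts through TNFR1, found on most cells and able to signal death, and TNFR2, found mainly on blood cells and endothelium. In liver these cytokines come largely from myeloid cells and reach hepatocytes, stellate cells and endothelium.

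The ligand genes Il1a and Il1b are neighbours on mouse chromosome 2, with 54597 bases between them in GRCm38. Il1a spans chr2:129299610-129309972 and Il1b chr2:129364570-129371139, both on the minus strand, and Tnf lies on the minus strand of chromosome 17 at chr17:35199381-35202007. Their 250 bases before the start of transcription, from RefSeq on GRCm38.p6, are shown because the neighbours were high in different cells. They cover chr2:129309973-129310222 for Il1a, chr2:129371140-129371389 for Il1b and chr17:35202008-35202257 for Tnf, read 5′ to 3′ on the minus strand, and capitals mark matches to TATAAA and to the AP-1 motif TGANTCA.
Il1a: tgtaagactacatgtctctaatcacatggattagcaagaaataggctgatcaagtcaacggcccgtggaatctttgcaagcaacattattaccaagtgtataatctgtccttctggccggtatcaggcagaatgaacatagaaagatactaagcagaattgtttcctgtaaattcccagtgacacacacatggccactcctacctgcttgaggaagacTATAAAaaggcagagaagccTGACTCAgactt
Il1b: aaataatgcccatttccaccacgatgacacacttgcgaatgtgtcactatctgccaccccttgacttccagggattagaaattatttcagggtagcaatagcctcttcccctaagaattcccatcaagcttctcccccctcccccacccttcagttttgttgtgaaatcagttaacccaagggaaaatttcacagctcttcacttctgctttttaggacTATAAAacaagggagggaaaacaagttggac
Tnf: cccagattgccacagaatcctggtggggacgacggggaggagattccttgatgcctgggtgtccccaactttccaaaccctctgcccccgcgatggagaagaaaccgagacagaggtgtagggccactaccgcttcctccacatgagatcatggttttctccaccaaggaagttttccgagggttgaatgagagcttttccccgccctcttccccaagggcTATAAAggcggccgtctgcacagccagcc
All 3 held a TATAAA beginning 32, 31 and 29 bases before the start, a match that 12.4% of 32851 promoters of this length hold on either strand. Il1a also held an AP-1 match 12 bases before the start, as do 6.75% of promoters, and no match to an NF-κB motif (7.25% of promoters) or to the C/EBP motif TTGCNNAA (9.56%) lay in these 3 windows. Such matches describe the letters only.

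Il1b RNA was highest in neutrophils in every mouse that had 20 of them, and the other types followed far behind. In neutrophils it stood at 1837 CPM in control replicate 1, at 1973, 786 and 1455 CPM in HFD+F+CCl4 mice and at 651, 681 and 1134 CPM in WD+F+CCl4 mice. Control replicate 2 had only 17 neutrophils, with 42 Il1b molecules among 26367 UMIs. The NASH neutrophils, at 1113 ± 522 CPM (SD, n = 6), did not overlap the next type, patrolling monocytes, at 188 ± 55.3 CPM (n = 6). The single control value lay inside the range of the NASH mice. Dendritic cells (123 ± 57.7 CPM), classical monocytes (114 ± 75.0 CPM) and macrophages (99.6 ± 105 CPM) overlapped each other across NASH mice. Erythroid cells (107 ± 82.2 CPM, n = 4) and B cells (87.6 ± 133 CPM, n = 6) overlapped them too. The part of free RNA in levels of this size was not tested. After thinning each cell to 1000 UMIs, 45.8% to 71.2% of NASH neutrophils held an Il1b molecule against 4.27% to 13.8% of dendritic cells, and against 1.14% to 3.27% of T and NK cells, where free RNA can give a share of this size. Without thinning the shares were 56.2% to 80.9% of neutrophils and 16.9% to 38.2% of dendritic cells. Over the whole liver sample neutrophils gave 33.3% of the Il1b molecules of a NASH liver at the median and MMD cells 60.1%.

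Il1a, by contrast, was near 0 in neutrophils, at 2.34 ± 2.87 CPM (n = 6 NASH mice), and was found in endothelial and Kupffer cells. Endothelial cells held 45.3 and 56.7 CPM in the controls, 67.0, 15.1 and 12.8 CPM in HFD+F+CCl4 mice and 18.6 and 48.5 CPM in WD+F+CCl4 replicates 2 and 3. NASH mice lay both above and below the controls. Kupffer cells of 5 NASH mice held 14.8 to 34.1 CPM, and the third type, macrophages, 0.843 to 4.95 CPM, with no overlap. The 3 genes most like Il1a across 13 cell types (Pearson r of mean log2(CPM + 1) in NASH mice, a description over types that share libraries) were Dysf (0.96), Ptgs1 (0.96) and Stab2 (0.94). Stab2, a scavenger receptor of liver sinusoidal endothelium, was itself 1 of the endothelial markers. For Il1b they were Zfp36 (0.95), which encodes a protein that destabilises cytokine mRNA, Pfkfb4 (0.94) and Sirpb1b (0.92).

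The antagonist Il1rn was spread more widely. It stood at 416 CPM in neutrophils of control replicate 1 and at 256 to 760 CPM in NASH neutrophils. Kupffer cells (57.0 to 992 CPM in 5 NASH mice) and macrophages (68.7 to 596 CPM in NASH mice) overlapped with these and with each other. Cholangiocytes (97.2 to 230 CPM in 5 NASH mice) overlapped with Kupffer cells and macrophages but lay below all NASH neutrophil values. Cholangiocytes, the epithelial cells of the bile ducts, held 55.3 and 66.3 CPM in the controls, below all 5 NASH values, but the difference did not pass the test (log2 fold change 1.86 ± 0.51 (SE), adjusted p = 0.154 for WD+F+CCl4, edgeR). Molecules of Il1rn for each molecule of Il1b, counted as 3′ tags and not per length, numbered 0.227 in control neutrophils and 0.268 to 0.522 in NASH neutrophils. In macrophages the same ratio was 2.84 in control replicate 1 and ran from 0.839 to 3.92 in NASH mice. In cholangiocytes it ran from 4.18 to 20.8 in the 4 mice with at least 10 molecules of each gene. Dendritic cells of NASH mice, with 0.16 to 0.634, overlapped the neutrophils. Across types Rab20 (0.92), Pnpla2 (0.90) and Ninj1 (0.87) were most like Il1rn.

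HFD+F+CCl4 replicate 3 stood apart for Il1rn. Its macrophages held 596 CPM where the other NASH mice held 68.7 to 111 CPM, and 469 of the 643 cells of 1 macrophage cluster, with Il1rn leading its genes by fold (1101 CPM against 80.6 CPM in other cells, in a clustering that did not use it), came from that mouse. In this cluster 5 NASH mice held 439 to 1689.9 CPM. In the largest macrophage cluster Il1rn was also highest in that mouse, at 281 CPM against 39.6 to 102 CPM, so the mouse stood apart in both. Macrophages of control replicate 1 held 249 CPM (54 molecules), above the 68.7 to 111 CPM of the other NASH mice. Those of control replicate 2 held 56.5 CPM (2 molecules in 16 cells).

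Il1r2, the decoy receptor, was 22.0-fold higher in neutrophils than in the next type, dendritic cells, over NASH mice. Neutrophils held 154 CPM in control replicate 1, 391.7, 363 and 222 CPM in HFD+F+CCl4 mice and 390, 355 and 327 CPM in WD+F+CCl4 mice. All 6 NASH mice were above the 1 control that could be measured, and control replicate 2 had 0 molecules among 26367 UMIs in its 17 neutrophils, which allows up to 114 CPM at 3 counts. No other type passed 52.0 CPM in a NASH mouse, and neutrophils gave 64.6% to 80.4% of all Il1r2 molecules in NASH livers. Asprv1 (0.94), Ifitm1 (0.91) and Mrgpra2b (0.90) followed it most closely across types.

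Il18 was a Kupffer cell gene in NASH livers, at 104 to 239 CPM in 5 mice, above classical monocytes (32.1 to 59.1 CPM) with no overlap. Classical monocytes did not differ from control (36.8 and 52.6 CPM) beyond their spread. Macrophages, at 29.4 to 41.3 CPM, lay above dendritic cells, at 15.6 to 28.0 CPM. MMD cells gave 82.7% of Il18 molecules at the NASH median. Dnase2a (0.86), an acid nuclease of lysosomes, Adgb (0.84) and Epb41l3 (0.83) were most like it.

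Tnf was low and variable. Neutrophils (55.3 to 354 CPM), T and NK cells (37.7 to 174 CPM) and patrolling monocytes (22.5 to 141 CPM) overlapped across NASH mice, and T and NK cells held 31.2 and 45.3 CPM in the controls. In control replicate 1, the only control with 20 of each, neutrophils (93.1 CPM) and macrophages (69.3 CPM) lay above its T and NK cells. HFD+F+CCl4 replicate 1 was the highest NASH mouse in neutrophils, T and NK cells and patrolling monocytes, and also in classical monocytes (112 CPM against 21.8 to 42.6 CPM) and dendritic cells (102 CPM against 10.8 to 24.3 CPM). In the same mouse 16 immediate-early and heat shock genes, which rise when cells are handled or warmed as well as in activation, summed to 6236 CPM over all kept cells against 1853 to 2981 CPM in the other 7, and 2 clusters led by them took 2784 of 3443 and 1971 of 2320 cells from it. In HFD+F+CCl4 replicate 3, with the next highest neutrophil Tnf (246 CPM), the list stood at 2544 CPM. The part of this list in the Tnf values was not tested. Rab8a (0.90), Glipr1 (0.89) and Supt4a (0.88) were most like Tnf.

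**Figure D1:**
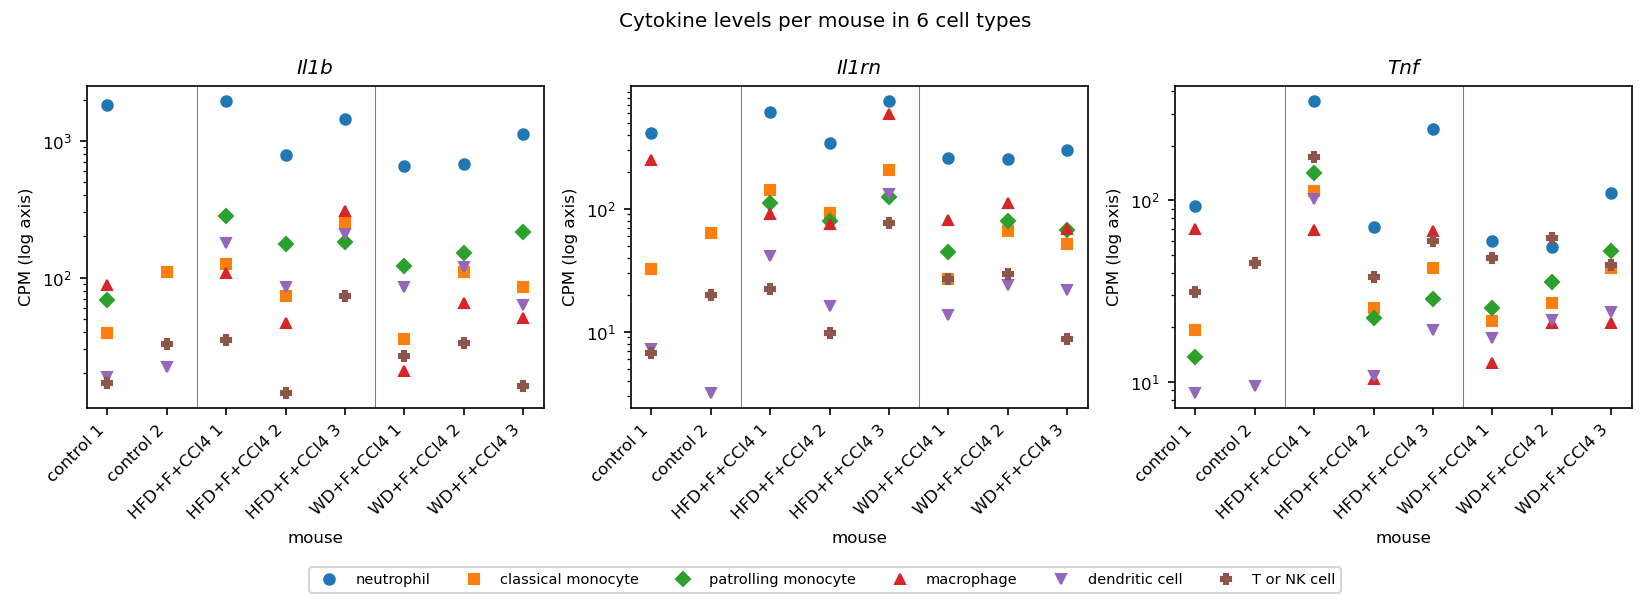
CPM of Il1b, Il1rn and Tnf (log axis) in each of 8 mice (x axis, grey lines divide the groups) in 6 cell types, with values at 0 or from under 20 cells not drawn. Neutrophils lead Il1b in all 7 mice with a neutrophil value, Il1rn in macrophages reaches 596 CPM in HFD+F+CCl4 replicate 3, and Tnf is highest in HFD+F+CCl4 replicate 1 in neutrophils, T and NK cells, both monocyte types and dendritic cells.

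The TNF receptors divided differently among the cells. Tnfrsf1a, for TNFR1, had its highest mean over NASH mice in endothelial cells, which held 232 and 199 CPM in the controls, 349, 280 and 298 CPM in HFD+F+CCl4 mice and 397 and 345 CPM in the WD+F+CCl4 mice with enough cells. All 5 NASH values were above both controls, but the change did not pass the test (log2 fold change 0.75 ± 0.31 and adjusted p = 0.364 for WD+F+CCl4, 0.49 ± 0.28 and 0.532 for HFD+F+CCl4, edgeR). In control replicate 1 neutrophils (233 CPM) and macrophages (217 CPM) were close to the endothelial value. NASH B cells held 39.4 to 59.1 CPM. Tnfrsf1b, for TNFR2, was highest in patrolling monocytes, at 431 to 594 CPM in NASH mice and 821 CPM among the 30 cells of control replicate 1, and then in classical monocytes, at 376 to 429 CPM in NASH mice and 410 and 395 CPM in the controls. The 2 monocyte types did not overlap, with 404 ± 19.96 CPM (SD, n = 6) in the classical cells. The ratio of Tnfrsf1b to Tnfrsf1a molecules was 2.38 to 3.69 in NASH patrolling monocytes and 0.131 to 0.357 in NASH endothelial cells. Rac1 (0.95), Rbms1 (0.93) and Ralb (0.92) followed Tnfrsf1a, and Rap1b (0.96), Gm21188 (0.95) and Metrnl (0.94) followed Tnfrsf1b. Gm21188 is a gene model, so its row is uncertain where reads could fit another locus.

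Nlrp3 and Casp1, which work in the same complex, had different maps. Nlrp3 was highest in neutrophils, at 228 CPM in control replicate 1, at 206, 91.6 and 153 CPM in HFD+F+CCl4 mice and at 74.1, 88.9 and 90.9 CPM in WD+F+CCl4 mice. All 6 NASH values lay below that control. Control replicate 2 had 1 molecule among 26367 UMIs in its 17 neutrophils (37.9 CPM), below all 6 NASH values. No direction is therefore read. Casp1 was nearly even, at 66.6 to 88.4 CPM in patrolling and 67.4 to 76.0 CPM in classical monocytes, 42.6 to 83.4 CPM in T and NK cells and 36.8 to 50.2 CPM in neutrophils of NASH mice, and lowest in cholangiocytes, at 1.90 to 23.1 CPM. Nlrp3 was most like Tlr6 (0.96), a sensor of bacterial lipopeptides, Csf2ra (0.95) and Sirpb1b (0.95), and Casp1 like Lrmp (0.93), Wipf1 (0.93) and Nin (0.92). Sirpb1b thus stood among the 3 genes nearest to both Il1b and Nlrp3.

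**Figure D2:**
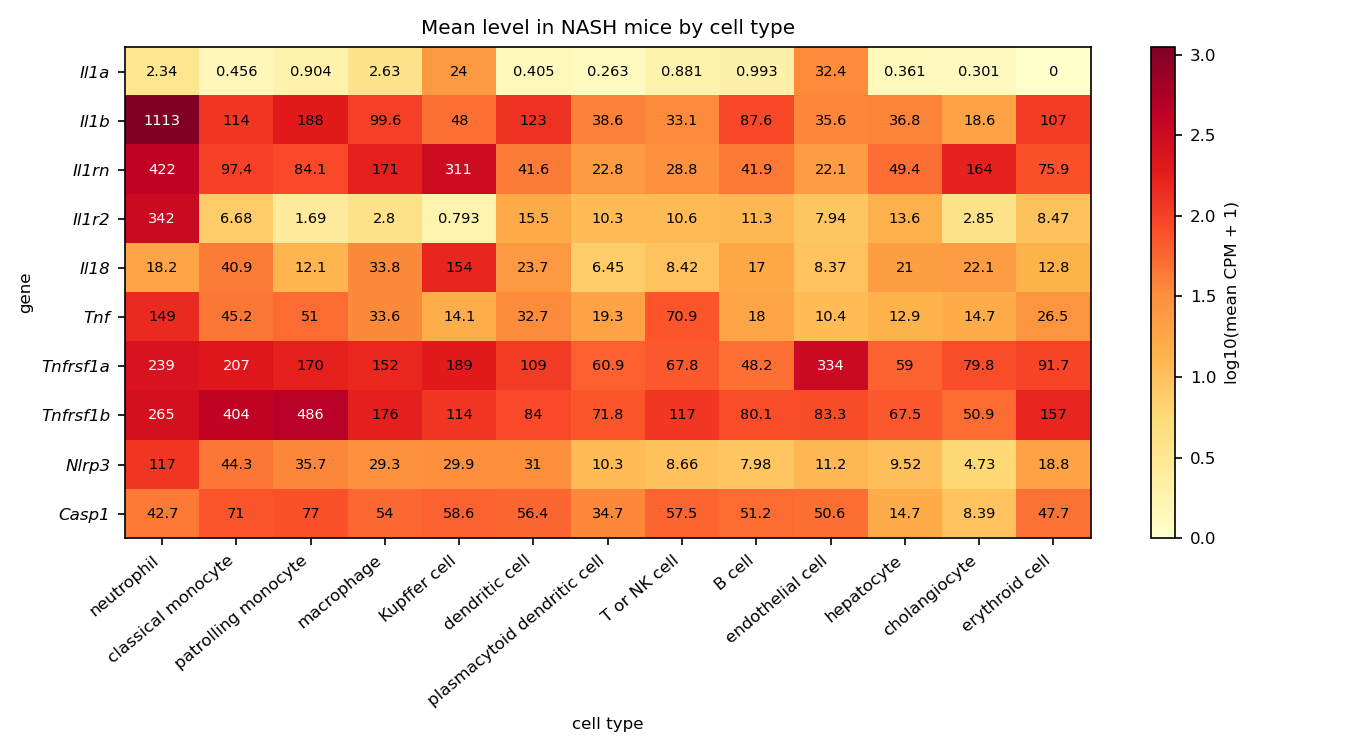
Mean CPM over the NASH mice for the 10 genes (rows) in 13 cell types (columns), with each mean printed and the colour giving log10(mean CPM + 1). Il1b (1113), Il1rn (422), Il1r2 (342), Tnf (149) and Nlrp3 (117) are darkest in neutrophils, Il1a (32.4) and Tnfrsf1a (334) in endothelial cells, Il18 (154) in Kupffer cells, and Tnfrsf1b (486) and Casp1 (77.0) in patrolling monocytes.

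Both NASH models were then compared with control over MMD cells as named here, a set formed after the cell system that the study followed. Il1b, Il1rn and Tnfrsf1a were higher in HFD+F+CCl4 mice and Tnfrsf1a and Casp1 in WD+F+CCl4 mice, and all 10 fitted differences were positive in both models. That is 3 of 10 genes called higher against 9.29% of all 17203 genes called higher (17.4% called in either direction) for HFD+F+CCl4, and 2 of 10 against 11.6% (21.9% in either direction) for WD+F+CCl4. Counts per mouse were tested with edgeR's quasi-likelihood test, and a gene is called at a Benjamini-Hochberg adjusted p under 0.05 over all genes. The median log2 fold change of the 10 was 1.03 and 0.91 beside 0.08 and 0.06 for all genes. Both comparisons share the 2 control mice.

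Il1rn in MMD cells was 22.7 and 24.5 CPM in the controls, 88.9, 65.4 and 275 CPM in HFD+F+CCl4 mice and 46.8, 71.7 and 72.0 CPM in WD+F+CCl4 mice. Every NASH mouse was above both controls, and the log2 fold change was 2.82 ± 0.67 (adjusted p = 0.0231) for HFD+F+CCl4 and 1.64 ± 0.65 (adjusted p = 0.105) for WD+F+CCl4. Il1b was 24.7 and 55.1 CPM in the controls, 152, 72.7 and 232 CPM in HFD+F+CCl4 mice and 42.5, 99.4 and 73.1 CPM in WD+F+CCl4 mice. The HFD+F+CCl4 mice were all above control (2.25 ± 0.59, adjusted p = 0.0334), while the WD+F+CCl4 mice overlapped it (1.19 ± 0.58, adjusted p = 0.175). The Il1b fold stayed between 1.74 and 2.74 on the log2 scale over 21 alternatives, but 8 of them lost the call: leaving out HFD+F+CCl4 replicate 1 or 3 or either control mouse, the fit of only the 2 groups, the replicate block, cells with more than 1000 genes, and leaving out the 2 clusters led by heat shock genes (1.93, adjusted p = 0.0633). In addition, the Il1rn call was lost without either control.

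Tnfrsf1a was 98.3 and 110 CPM in the controls, 168, 128 and 131 CPM in HFD+F+CCl4 mice and 161, 178 and 165 CPM in WD+F+CCl4 mice. All NASH mice lay above both controls, by log2 0.63 ± 0.14 (adjusted p = 0.02) and 0.92 ± 0.15 (adjusted p = 0.00374). The WD+F+CCl4 call held under all 21 alternative analyses, the only 1 of 20 called values to do so. Casp1 was 49.1 and 47.9 CPM in the controls, 58.6, 54.1 and 65.5 CPM in HFD+F+CCl4 mice and 58.0, 58.6 and 70.4 CPM in WD+F+CCl4 mice. The call of this small difference (0.56 ± 0.17, adjusted p = 0.0467 for WD+F+CCl4, edgeR) was lost in 11 of 21 alternatives. Single types did not all share it. In classical monocytes Casp1 was 76.6 and 73.6 CPM in the controls and 67.4 to 76.0 CPM in NASH mice, which overlapped. Dendritic cells lay higher and macrophages lower in NASH mice, as given below. Nlrp3 (0.70 and 0.77 on the log2 scale), Tnfrsf1b (0.64 and 0.76), Il18 (0.51 and 0.90), Il1r2 (1.65 and 2.35), Tnf (1.36 and 0.42) and Il1a (1.89 and 1.35) did not pass.

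The mix of cells in MMD moved with the groups. Plasmacytoid dendritic cells were 37.6% and 39.6% of control MMD cells and 0.267% to 6.89% of those in NASH mice, whereas macrophages were 4.83% and 2.29% against 20.6% to 41.2% and patrolling monocytes 2.79% and 1.72% against 18.5% to 41.5% (shares were not tested). For Tnfrsf1a, classical monocytes of NASH mice lay above both controls (191 to 237 CPM against 172 and 153 CPM) without passing the test (log2 fold change 0.35 ± 0.17, adjusted p = 0.237 for WD+F+CCl4), and plasmacytoid dendritic cells overlapped (29.8 to 80.0 CPM against 47.4 and 79.3 CPM). Tnfrsf1a in NASH macrophages, at 127 to 187 CPM, lay below control replicate 1 (217 CPM) and control replicate 2 (226 CPM, 8 molecules in 16 cells). NASH patrolling monocytes, at 147 to 190 CPM, also lay below control replicate 1 (205 CPM, 15 molecules) and control replicate 2 (372 CPM, 4 molecules in 12 cells). Dendritic cells overlapped (88.4 to 131 CPM against 62.4 and 105 CPM). The part of the mix in the MMD differences was not tested. The 16 immediate-early and heat shock genes summed to 2081 and 2909 CPM in control MMD cells, to 6896 CPM in HFD+F+CCl4 replicate 1 and to 1868 to 3067 CPM in the other NASH mice.

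**Figure D3:**
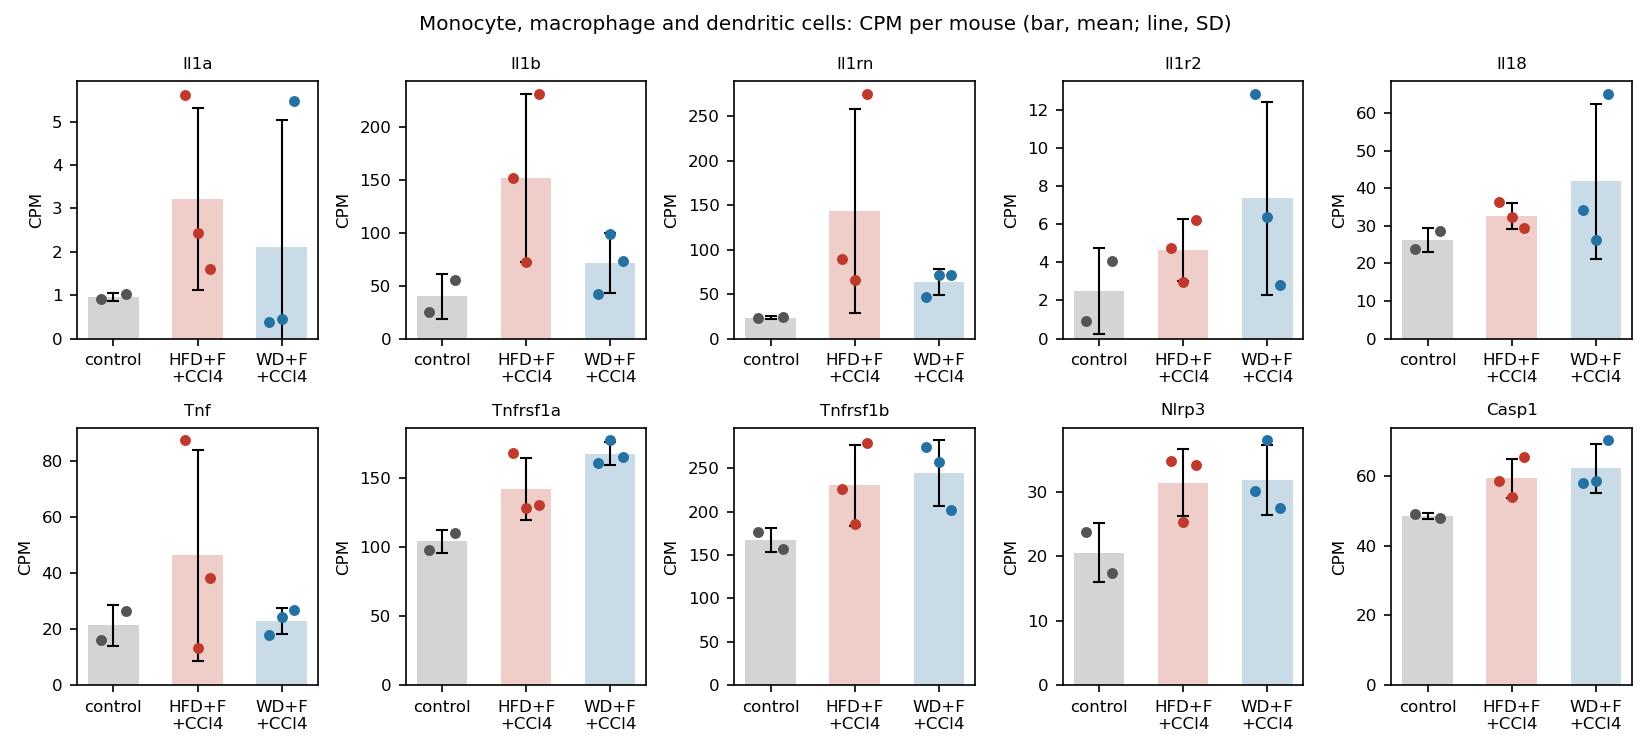
CPM of each of the 10 genes in MMD cells, with 1 point per mouse, bars at the group mean and lines of 1 SD cut at 0 (control n = 2, each model n = 3). Il1rn, Tnfrsf1a, Tnfrsf1b, Nlrp3 and Casp1 have every NASH mouse above both controls, with Casp1 at 54.1 to 70.4 CPM against 49.1 and 47.9, and the HFD+F+CCl4 spread of Il1rn comes from 1 mouse at 275 CPM. How many of all genes separate in this way was not counted.

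Within single cell types, dendritic cells and T and NK cells held calls in both models. Across the 7 types that could be tested, 6 of 59 gene and type pairs were called for HFD+F+CCl4, where 4.78% of all pairs were called, and 9 of 59 for WD+F+CCl4, where 8.4% were, and all 15 were higher than control. Leaving out control replicate 1, which leaves only the shallow control, ended every one of these calls. Leaving out control replicate 2, the shallow one, also ended many of them, among them Il1r2 in dendritic cells in both models. Each of these fits keeps only 1 control. Neutrophils, macrophages and patrolling monocytes fell short of 20 cells in control replicate 2. With a minimum of 10 cells, chosen after the data were seen, Il18 was called in neutrophils for WD+F+CCl4 (3.13 ± 0.75, adjusted p = 0.039, where 3.67% of genes were called, and 2.18% for HFD+F+CCl4), against 1 molecule in control replicate 1. In macrophages no gene of the 10 was called (2.01% and 2.6% of genes were). Patrolling monocytes likewise had no call among the genes of the 10 tested there, and the share of all genes called is not given. Their Il1b fits were 2.17 ± 0.70 (adjusted p = 0.269) for HFD+F+CCl4 and 1.80 ± 0.72 (adjusted p = 0.393) for WD+F+CCl4, by edgeR. Il1rn and Nlrp3 had 0 molecules in these cells of both controls, so no fold is read. Casp1 in macrophages was 166 CPM in control replicate 1 and 113 CPM (4 molecules in 16 cells) in control replicate 2, against 47.9 to 66.2 CPM in NASH mice (−1.35 ± 0.31, adjusted p = 0.0581, and −1.31 ± 0.31, adjusted p = 0.0535). Nlrp3 there was 83.1 and 84.8 CPM (18 and 3 molecules) against 22.5 to 40.8 CPM (−1.29 ± 0.46, adjusted p = 0.19, and −1.38 ± 0.46, adjusted p = 0.136). All NASH macrophage values of both genes lay below both controls. RNA of 18 genes secreted by the liver, which free RNA can carry into any droplet, moved with the groups, at 2443 and 1968 CPM in control dendritic cells and 142 to 784 CPM in those of NASH mice, at 2710 and 3156 against 122 to 1491 CPM in T and NK cells, and at 6164 and 3881 against 118 to 1629 CPM in B cells. Its part in the results was not tested.

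In dendritic cells, which present antigen to T cells, Il1b was 18.9 and 22.2 CPM in the controls, 178, 85.9 and 209 CPM in HFD+F+CCl4 mice and 85.7, 120 and 63.4 CPM in WD+F+CCl4 mice. The groups did not overlap, and the log2 fold changes were 2.97 ± 0.49 (adjusted p = 0.00668) and 2.19 ± 0.49 (adjusted p = 0.0154). In all, 2 of 9 tested genes were called for HFD+F+CCl4 (3.63% of genes were called higher) and 3 of 9 for WD+F+CCl4 (6.61%). The control values rest on 26 and 7 molecules. Il1r2 was 1.45 and 3.17 CPM in the controls, from 2 and 1 molecules, 23.8, 8.16 and 13.5 CPM in HFD+F+CCl4 mice and 16.3, 16.9 and 14.5 CPM in WD+F+CCl4 mice, and was called in both (2.97 ± 0.75, adjusted p = 0.039, and 3.13 ± 0.74, adjusted p = 0.0199). With so few control molecules the size of that fold is uncertain. Casp1 was 32.7 and 38.0 CPM in the controls, 55.3, 47.1 and 58.3 CPM in HFD+F+CCl4 mice and 63.5, 52.2 and 61.8 CPM in WD+F+CCl4 mice, and was called for WD+F+CCl4 alone (0.80 ± 0.21, adjusted p = 0.0334, against 0.63 ± 0.21, adjusted p = 0.103), which does not show that the models differ.

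Il18 went the other way in dendritic cells, with 31.9 and 44.4 CPM in the controls and 15.6 to 28.0 CPM in NASH mice, every NASH mouse below both controls, though neither fit passed (log2 fold change −0.57 ± 0.33, adjusted p = 0.35, and −0.60 ± 0.34, adjusted p = 0.281). The kinds of dendritic cell moved with these values. Cells with more molecules of type 1 markers (Xcr1, Clec9a and 4 others) were 52.5% and 52.2% of control dendritic cells and 22.4% to 32.3% of those in NASH mice, and those with more type 2 markers (Cd209a, Clec10a and 4 others) 32.0% and 11.2% against 36.0% to 53.7%. This split was chosen after the values were seen and is given without a test. Il18 in the type 1 cells was 43.0 and 60.3 CPM in the controls and 22.0 to 49.3 CPM in NASH mice, so these ranges overlapped, and in the type 2 cells it was 13.6 and 23.9 CPM (5 and 1 molecules) against 10.8 to 19.8 CPM. Il1b stayed higher in NASH mice in both kinds, at 9.31 and 10.97 CPM (8 and 2 molecules) against 52.8 to 132 CPM in type 1 cells and at 27.1 and 47.7 CPM (10 and 2 molecules) against 60.8 to 289 CPM in type 2 cells. Il1r2 in NASH mice was higher in type 2 cells, at 13.3 to 33.9 CPM, than in type 1 cells of the same mouse, at 2.48 to 10.7 CPM.

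Free RNA in the suspension enters every droplet, so Il1b and Il1r2 in other cells were set beside 8 neutrophil markers. The summed markers in dendritic cells were 0.0444% of their level in neutrophils of control replicate 1 and 0.0627% to 0.202% in NASH mice. Il1b in dendritic cells was 1.03% of its neutrophil level in that control and 5.59% to 17.5% in NASH mice, and Il1r2 0.941% against 2.25% to 6.09%. Both percentages lay above that of the markers in all 7 mice with a neutrophil value. These markers also served to name the cells, MMD cells gave 60.1% of Il1b molecules at the NASH median, and the part of free RNA in these values was not tested. In B cells the markers reached 0.29% to 3.41% of the neutrophil level in NASH mice, and Il1r2 there (0% to 16.1%) lay below the markers in HFD+F+CCl4 replicates 1 and 2, as it did in control replicate 1 (0.615% against 0.639%).

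**Figure D4:**
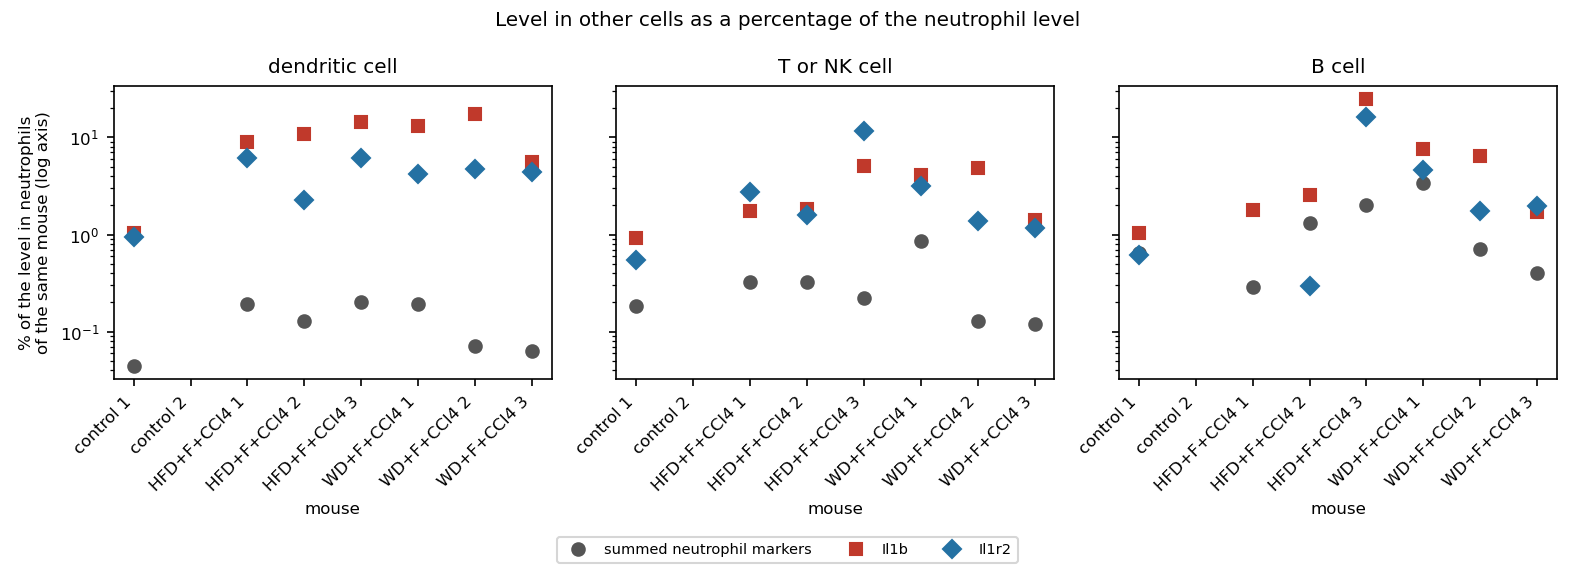
Level in dendritic, T and NK, and B cells as a percentage of the level in neutrophils of the same mouse (log axis), for 8 summed neutrophil markers, Il1b and Il1r2, with values of 0 and control replicate 2 (17 neutrophils) not drawn. In dendritic cells Il1b and Il1r2 lie at 0.941% to 17.5%, above the markers at 0.0444% to 0.202% in every mouse shown.

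In T and NK cells the clearest change was in Casp1. It was 10.3 and 22.6 CPM in the controls, 48.7, 52.5 and 64.3 CPM in HFD+F+CCl4 mice and 42.6, 53.8 and 83.4 CPM in WD+F+CCl4 mice, with log2 fold changes of 1.99 ± 0.36 (adjusted p = 0.0126) and 2.195 ± 0.36 (adjusted p = 0.00627). In each model 2 of 10 genes were called, where 4.7% and 6.73% of genes were called higher. The groups did not overlap, and in cells thinned to 1000 UMIs the share with a Casp1 molecule was likewise 0.763% and 2.54% in the controls and 3.98% to 8.60% in NASH mice. Thinning left out 77 and 371 control cells and 7 to 55 cells of each NASH mouse, and without it the shares were 3.36% and 3.47% against 10.3% to 19.1%. Hepatocytes of NASH mice, set beside them as a type with a low Casp1 level, gave 0% to 2.24%.

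Different clusters held these cells in control and NASH mice. Of control T and NK cells most lay in a cluster led by Cxcr6, Il2rb and Cd226 (3166 and 827 cells), and of NASH cells most in one led by Ccl5, Cd8a and Nkg7 (389 to 1345 cells). Within the second, Casp1 was 11.9 CPM (3 molecules) and 0 of 68288 UMIs (up to 43.9 CPM at 3 counts) in the controls and 37.5 to 84.6 CPM in NASH mice. In the first it was 8.46 and 23.1 CPM in the controls and 41.1 to 70.1 CPM in the 4 NASH mice with 20 cells, from 5 to 8 molecules each. In a cluster led by Xcl1, Gzmc and Ncr1, the last a receptor of NK cells, control replicate 1 held 36.1 CPM and control replicate 2 had 0 of 22246 UMIs (up to 135 CPM) against 43.9 to 95.9 CPM in NASH mice, and among T cells led by Tnfrsf4 and Foxp3 10.7 CPM (3 molecules) against 48.7 to 78.2 CPM. Casp1 was thus higher in each NASH mouse with 20 cells than in control replicate 1 in all 4 of these clusters.

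Il1r2 and Il18 were also called in T and NK cells, at very low levels. Il1r2 was 0.851 and 2.06 CPM in the controls, 10.8, 5.73 and 26.1 CPM in HFD+F+CCl4 mice (3.76 ± 0.90, adjusted p = 0.0362) and 12.2, 4.89 and 3.84 CPM in WD+F+CCl4 mice (2.81 ± 0.90, adjusted p = 0.0686). The neutrophil markers were 0.12% to 0.867% of their neutrophil level in NASH T and NK cells and Il1r2 1.17% to 11.7%. Il18 was 3.22 and 5.49 CPM in the controls, 7.81, 6.93 and 5.80 CPM in HFD+F+CCl4 mice and 9.54, 6.98 and 13.5 CPM in WD+F+CCl4 mice (1.47 ± 0.38, adjusted p = 0.037 for WD+F+CCl4). The share of thinned T and NK cells with an Il18 molecule, 0.2% to 0.714% in NASH mice and 0.347% and 0.725% in the controls, did not show this rise, although without thinning they were 1.87% to 3.24% against 0.867% and 1.11%, and hepatocytes and B cells gave shares up to 3.3% and 2.09%, so no order is read from it.

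Other calls were single genes, and many alternatives lost them (Il1rn in classical monocytes in 10 of 20, Nlrp3 in plasmacytoid dendritic cells in 12 of 20). Il1rn in classical monocytes was 32.1 and 63.1 CPM in the controls and 141, 92.1 and 206 CPM in HFD+F+CCl4 mice (1.95 ± 0.51, adjusted p = 0.049, 1 of 9 tested genes where 3.58% were called higher), and 26.9, 65.9 and 52.1 CPM in WD+F+CCl4 mice, which overlapped control and gave no call (0 of 9, where 5.02% were called higher). Control and NASH classical monocytes lay in different clusters (368 and 141 control cells in one, 327 to 2161 NASH cells in the other). Nlrp3 in plasmacytoid dendritic cells was 3.25 and 7.00 CPM in the controls and 17.5, 17.98 and 10.2 CPM in WD+F+CCl4 mice (1.95 ± 0.57, adjusted p = 0.0474, 1 of 8 tested genes where 4.04% were called higher), and 0 of 8 genes were called there for HFD+F+CCl4 (1.25%), with 2 at an unadjusted p under 0.05. The share of all genes at that unadjusted threshold is not given, so the 2 are not read as a result.

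In B cells Tnf was called for HFD+F+CCl4 (2.10 ± 0.59, adjusted p = 0.049, 1 of 9 tested genes where 3.92% were called higher), from 5.13 and 9.30 CPM in the controls and 47.5, 14.9 and 11.9 CPM in HFD+F+CCl4 mice, the highest again replicate 1. For WD+F+CCl4 3 of 9 were called (7.05% were called higher): Tnfrsf1a (1.54 ± 0.29, adjusted p = 0.00217), Tnfrsf1b (1.71 ± 0.42, adjusted p = 0.0128) and Casp1 (1.00 ± 0.31, adjusted p = 0.0495). Tnfrsf1a was 16.1 and 31.0 CPM in the controls and 59.1, 52.6 and 43.0 CPM in those mice. Of control B cells 2226 and 134 lay in one cluster, and 28 to 1466 cells of each NASH mouse in another. In the cluster of the NASH cells, control Tnfrsf1a was 94.2 CPM (22 molecules) and 13.7 CPM (1 molecule), on both sides of the 40.8 to 59.1 CPM of NASH mice, and with each cell named by its own markers the log2 fold change of Tnfrsf1a was 0.07 (adjusted p = 0.968), that of Tnfrsf1b 0.70 (adjusted p = 0.31) and that of Tnf for HFD+F+CCl4 1.35 (adjusted p = 0.278), while that of Casp1 was 1.21 and kept its call. Over all 21 alternatives the B cell Casp1 call was lost in 10, among them with doublets removed, and its log2 fold change ran from 0.26 to 1.28. The B cell Tnf call was lost in 14 of 20. Endothelial cells and cholangiocytes had no call among 8 and 6 tested genes in either model, where 0.226% to 0.404% and 0.172% to 0.258% of genes were called higher. By edgeR at an unadjusted p under 0.05, 2 and 1 of the endothelial genes and 2 and 2 of the cholangiocyte genes passed. The share of all genes at this threshold is not given here, so no result is read from these counts. Among the cholangiocyte genes, Tnf had 0 molecules in both controls.

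**Figure D5:**
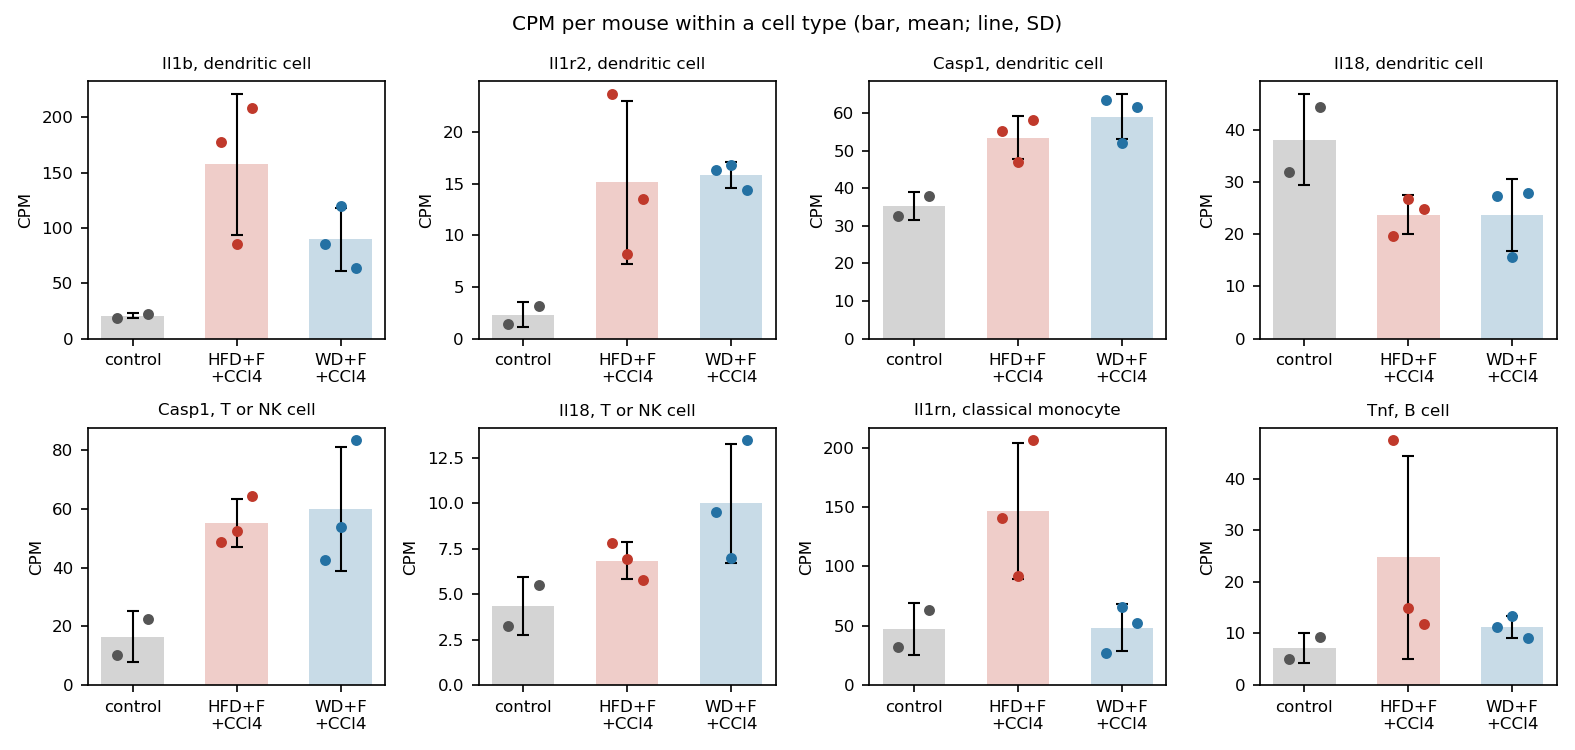
CPM per mouse of 8 gene and type pairs, with bars at the group mean and lines of 1 SD (control n = 2, each model n = 3). Il1b in dendritic cells rises from 18.9 and 22.2 CPM to 63.4 to 209 CPM and Casp1 in T and NK cells from 10.3 and 22.6 CPM to 42.6 to 83.4 CPM without overlap, while Il18 in dendritic cells lies lower in all 6 NASH mice without passing the test.

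Between the NASH models no gene of the 10 was called in MMD cells or in any of the 7 types. In MMD cells edgeR called 0 of 17203 genes (0%) between the models, 1130 of them had an unadjusted p under 0.05, and among the 10 there were 3. Over the types 13 of 77900 gene and type pairs (0.0167%) were called. The Il1b difference in MMD cells was −1.06 on the log2 scale (adjusted p = 0.745) and that of Il1rn −1.17 (adjusted p = 0.735), with the HFD+F+CCl4 mice spread from 72.7 to 232 CPM and from 65.4 to 275 CPM.

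The genes around these 10 moved in both directions in MMD cells. Of 86 genes in 5 pathway lists 80 could be tested, of which 15 rose and 4 fell in HFD+F+CCl4 mice (23.8% called, beside 17.4% of all genes) and 15 rose and 7 fell in WD+F+CCl4 mice (27.5%, beside 21.9%). In both models 12 rose and 4 fell. Inflammasome sensors, adaptor and effectors had 7 of 23 higher and 1 lower in each model (9.29% and 11.6% of all genes were called higher), with medians of 0.51 and 0.46. Ninj1, which ruptures the membrane in the last step of lytic cell death, was 44.1 and 30.6 CPM in the controls and 99.99 to 180 CPM in NASH mice (log2 fold change 2.00 ± 0.29, adjusted p = 0.00338, and 2.04 ± 0.29, adjusted p = 0.00252). P2rx4, an ATP-gated channel, was 60.7 and 54.1 CPM in the controls and 119 to 194 CPM in NASH mice (1.59 ± 0.19 and 1.38 ± 0.19). Nlrp6 fell (−4.59 ± 1.12 and −5.26 ± 1.16) from 2.16 and 7.14 CPM to at most 0.212 CPM.

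MyD88 and IRAK signalling had 2 of 12 higher and none lower in HFD+F+CCl4 mice and 3 higher and 1 lower in WD+F+CCl4 mice. The inhibitory kinase relative Irak3, which restrains IL-1 and Toll-like receptor signalling, was 16.6 and 29.6 CPM in the controls and 47.6 to 100.3 CPM in NASH mice (1.93 ± 0.38, adjusted p = 0.0107, and 1.57 ± 0.38, adjusted p = 0.0202). The IL-1 family list, of which 10 of 16 could be tested, had 2 genes lower in each model and none higher: Il18r1 and Il18rap, the chains of the IL-18 receptor. Il18r1 was 13.7 and 31.6 CPM in the controls and 0.587 to 2.01 CPM in NASH mice (−3.93 ± 0.57, adjusted p = 0.0032, and −3.74 ± 0.57, adjusted p = 0.00301). TNF ligands, shedding and receptor complex had 4 of 18 higher and 1 lower, then 5 higher and 2 lower, and Lta, for lymphotoxin, fell from 2.88 and 5.10 CPM to 0.199 to 0.623 CPM (−3.01 ± 0.64 and −3.50 ± 0.65). The NF-κB list had 2 of 17 higher (Tnip3 and Nfkbia) in HFD+F+CCl4 mice and 1 lower (Cyld) in WD+F+CCl4 mice. Over all genes 9.29% and 11.6% were called higher and 17.4% and 21.9% in either direction. Calls in the NF-κB list were thus below the share in either direction, and those in the IL-1 family list near it. Plasmacytoid dendritic cells made up 37.6% and 39.6% of control MMD cells and few of the NASH ones, and their part in these falls was not tested.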

How the data were processed

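Whole livers of 8 mice were perfused, digested at 37 °C and run as droplet 3′ libraries. The authors deposited UMI counts per gene and barcode, made with Cell Ranger on GRCm38. The methods and the file headers name different Cell Ranger releases, and the header gives 4.0.0. The counts are not normalized. Groups came from the labels. Cells (over 500 genes, mitochondrial share below 25%) were clustered in scanpy 1.11.5 (2000 variable genes, 30 principal components, 20 neighbours, Leiden resolution 0.8, 28 clusters) without the 10 genes and their pathway lists, and clusters were named from marker lists. Doublets were left in and removed as an alternative. UMIs were summed per mouse and type (at least 20 cells) and fitted over all 3 groups with edgeR 4.0.16 in R 4.3.3 (TMM, filterByExpr, quasi-likelihood test, Benjamini-Hochberg over all genes). P-values measure the spread between mice, with 2 controls. Levels between cell types were described without a test, intervals and floors of 3 counts cover counting error only, and one 3′ tag is counted per transcript whatever its length. On simulated counts for HFD+F+CCl4 against control in MMD cells (17203 genes), edgeR called 7% of changes of log2 1 and 52% of log2 2, and in dendritic cells (12113 genes) 23% and 79%.

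The members, lists and tests were chosen with earlier results of these data known. The pathway genes named with values are the 3 with the largest mean change in each direction among those called in both models, the other pathway genes named, by symbol, are all members of small called counts and were picked after their values were seen, and the genes most like a member are the 3 with the highest r among genes reaching 50 CPM in a type. Alternatives were another normalization, no filter, DESeq2 1.42.0, other naming and cell filters, a replicate block and leaving out each mouse.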

Additional observations from a re-analysis of the deposited data

Results flagged for a closer look

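Il18 values lay on opposite sides of control in different cells. The ratio of its median CPM over NASH mice to its mean CPM over control mice was 1.7 in T and NK cells and 2.93 in B cells, and 0.677 in dendritic cells. Every NASH mouse lay above both controls in the lymphocytes and below both in dendritic cells, and the difference between cell types was not tested. By edgeR only the T and NK cell difference for WD+F+CCl4 passed (adjusted p = 0.037), and the thinned shares did not show it. In B cells the adjusted p was 0.366 for HFD+F+CCl4 and 0.0753 for WD+F+CCl4, and in dendritic cells 0.35 and 0.281. The groups hold 2 or 3 mice, so no single mouse was tested for standing apart.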

How the results depend on the processing

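Of 20 called values, 1 kept its call under all of its alternatives, and over 417 combinations of a called value with an alternative 297 kept the call, 120 lost it and 0 changed direction. In MMD cells 3 of the 10 genes were called for HFD+F+CCl4, and 0 with only the 2 groups compared, 1 under the replicate block, 5 with cells named one by one, 7 with unnamed clusters added and 0 to 4 without one mouse. For WD+F+CCl4 the count of 2 became 1 with library size only, 7 with no filter, 4 with only the 2 groups, 1 with the replicate block, 4 with DESeq2, 1 with doublets removed, 1 with more than 1000 genes per cell, 5 with cells named one by one, 6 with unnamed clusters added and 1 to 4 without one mouse. Within types the 6 calls for HFD+F+CCl4 became 21 with no filter, 3 with more than 1000 genes and 0 to 7 without one mouse, the 9 for WD+F+CCl4 became 25 with no filter, 4 with doublets removed, 5 with cells named one by one and 0 to 12 without one mouse, and the 0 between the models became 7 with no filter, 1 with DESeq2 and 0 to 2 without one mouse. The cause was not tested. The shares of all genes called under these settings are not given, so the counts are not read as a response of the 10 genes. Same-numbered mice did not deviate together (correlations of −0.508 to 0.0657). Deviations were taken from the means of groups of 2 or 3 mice, which ties them within a group. The check therefore cannot show whether the numbers pair the mice. Uncalled values that changed sign in MMD cells were Il1a for HFD+F+CCl4 (−0.42 with unnamed clusters added), Il1a for WD+F+CCl4 (−0.973 to 1.84 without one mouse, the lowest without WD+F+CCl4 replicate 3, −0.43 with cells named one by one, −0.99 with unnamed clusters added) and, between the models, with ranges over the fits that leave out one mouse, Il1a (−2.84 to 0.0472), Il18 (−0.049 to 0.638), Tnfrsf1b (−0.00867 to 0.337) and Nlrp3 (−0.0905 to 0.179). The share of NASH cells with a molecule, at 500 UMIs and then without thinning, was 40.9% and 68.3% for Il1b, 18.4% and 44.1% for Il1rn, 20.9% and 47.0% for Il1r2 and 7.57% and 22.7% for Nlrp3 in neutrophils, 5.98% and 49.8% for Il18 in Kupffer cells, 15.6% and 68.1% for Tnfrsf1a in endothelial cells, and 20.5% and 61.5% for Tnfrsf1b and 3.94% and 16.9% for Casp1 in patrolling monocytes. Without thinning it was 20.6% for Tnf in neutrophils and 10.2% for Il1a in endothelial cells.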
